A study of Saccharomyces cerevisiae with 72 samples.

Results

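Messenger RNA of *kar4*Δ/Δ and wild type diploids that overexpressed *IME1* (Pzev-*IME1*) was compared after 6 h and 8 h in sporulation medium, late enough for early meiotic genes to be on and before *NDT80* transcripts separated the genotypes. The comparison rests on 8 of the 72 libraries of the series, 2 biological replicates for each genotype and hour, chosen by genotype, promoter and time alone. All strains were *Saccharomyces cerevisiae* diploids of the S288c background. The tested cells lacked both copies of *KAR4* (*kar4*Δ/Δ), and the cells they were set against were wild type for *KAR4*. In both, *IME1* was placed behind the Z3EV-responsive promoter and switched on with β-estradiol, added at transfer to potassium acetate medium. The Z3EV factor was made from the *ACT1* promoter. In the strain list the promoter fusion is heterozygous, so the *IME1* transcript includes that of an unmodified copy. That list gives the *kar4*Δ/Δ Pzev-*IME1* diploid as met15/+ with *kar4*::KANMX and *kar4*::URA3 alleles, and the wild type Pzev-*IME1* diploid as lys2/+. Which strain stock was sequenced is not given in the sources used here.

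The deposited table holds 1 value per gene and condition, the log2 fold change against wild type cells with endogenous promoters at 0 h, in which both replicates are already combined. A value below is that log2 fold change, and a difference is the *kar4*Δ/Δ value minus the wild type value at the same hour, so the shared reference cancels where fold changes are additive. The spread between replicates and the read depth are unknown, so no test could be made. Genes are counted where they were at least 2-fold apart, a difference of 1 on the log2 scale, and these counts describe sizes and not significance. The 6 h and 8 h values come from separate libraries but share the strains and the reference, and possibly the cultures that were sampled, so the hours are not independent.

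Kar4p is the yeast counterpart of METTL14. It belongs to the complex that places N6-methyladenosine on messenger RNA early in meiosis, and in mating cells it also works with the transcription factor Ste12p. Ime1p turns on the early genes of meiosis, which serve DNA replication and recombination, and Ndt80p later turns on the genes of the meiotic divisions and of spore formation. Starved diploids must also leave the mitotic cell cycle and adjust the genes for nutrient and metal uptake, which other factors control.

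*KAR4* itself, on chromosome III, had values of -4.83 at 6 h and -5.13 at 8 h in *kar4*Δ/Δ, against 0.36 at each hour in wild type. Its differences of -5.19 and -5.49 are as the genotype labels have it. *IME1* was higher at 6 h and 8 h than at 0 h in both genotypes. Its values were 3.29 and 3.35 in *kar4*Δ/Δ, against 3.47 and 3.60 in wild type, differences of -0.18 and -0.25. At 0 h these Pzev-*IME1* strains already had *IME1* values of 1.52 in *kar4*Δ/Δ and 1.94 in wild type. The 6 h and 8 h values are therefore larger than the rise within each strain. Of 12 genes that mark haploid cells, such as the pheromone genes *MFA1* and *MF(ALPHA)1*, 0 were 2-fold apart, with differences of -0.77 to 0.48 at 6 h and -0.32 to 0.77 at 8 h. In the wider list of 34 haploid-specific and mating genes, 1 was higher at 6 h (*NEJ1*) and 2 at 8 h (*NEJ1* and *STE12*), and 0 were lower. Over all genes, 1.49% were higher at 6 h and 1.11% at 8 h, and 3.34% and 3.86% were lower.

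Of 6496 genes, 217 (3.34%) had at least 2-fold less transcript in *kar4*Δ/Δ at 6 h and 97 (1.49%) at least 2-fold more. At 8 h there were 251 lower genes (3.86%) and 72 higher genes (1.11%). The lower genes were largely shared between the hours, and the higher genes much less so. The 181 genes (2.79%) lower at both hours make up 83.4% of those lower at 6 h and 72.1% of those lower at 8 h. The 25 genes (0.385%) higher at both hours make up 25.8% and 34.7%. With all columns brought to the same distribution by quantile scaling, the split was 188 lower and 148 higher at 6 h, and 148 lower and 46 higher at both hours. The median difference over all genes was -0.00 at 6 h and 0.02 at 8 h. The genotypes were farther apart at the other hours of the same strains. The 2-fold limit was passed downwards by 507 genes and upwards by 479 at 2 h, and by 349 and 150 at 12 h.

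**Figure D1:**
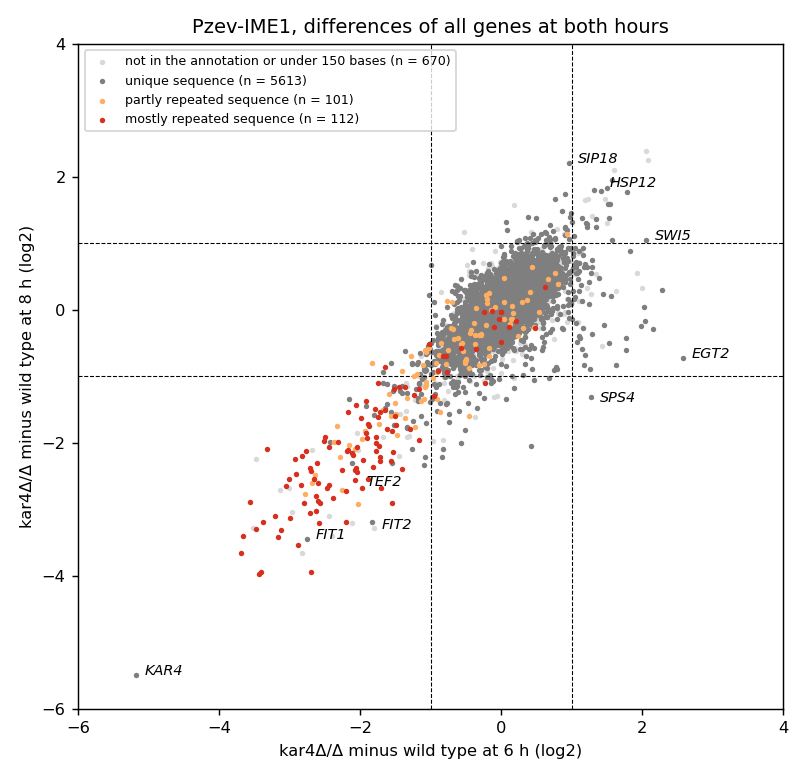
Difference of every gene at 6 h (x axis) and at 8 h (y axis), *kar4*Δ/Δ minus wild type on the log2 scale, with 1 point per gene coloured by how much of its sequence occurs elsewhere in the genome. Dashed lines mark 2-fold. Genes of mostly repeated sequence lie at the lower left, with medians of -1.97 and -2.12, while *EGT2* and *SPS4* lie to the right at 6 h and below 0 at 8 h.

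Most genes that were lower at both hours held some sequence that occurs again elsewhere in the genome. Each gene was scored by the share of its 150-base windows that occur again in the genome. Of the 181 lower genes, 119 held such repeated windows, 91 in at least 0.5 of their windows and 28 in fewer. Another 38 were of unique sequence, and 24 had no score because they are shorter than a window or were not found in the annotation. Of the 112 genes in which at least 0.5 of the windows are repeated, 93 were lower at 6 h, 93 at 8 h, and 91 (81.2%) at both. Of the 5613 genes of unique sequence, 38 (0.677%) were. Among the repeated genes, 36 of 41 retrotransposon gag and gag-pol genes and 8 of 9 Y' element helicase genes at chromosome ends were lower at both hours.

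The coding sequences of 4 pairs of duplicated genes, chosen after their values were seen, are shown as examples of how close such copies are. The lines give bases 301 to 390 of each coding sequence, 5′ to 3′, with capitals at positions where the copies differ. *TEF1* and *TEF2* encode translation elongation factor EF-1 alpha, and the other pairs encode proteins of the large ribosomal subunit.
TEF1: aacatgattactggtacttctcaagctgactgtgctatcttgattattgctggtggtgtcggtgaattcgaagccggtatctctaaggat
TEF2: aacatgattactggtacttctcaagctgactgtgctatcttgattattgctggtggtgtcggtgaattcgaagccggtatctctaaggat
RPL4A: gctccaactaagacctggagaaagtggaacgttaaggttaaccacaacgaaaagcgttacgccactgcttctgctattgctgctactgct
RPL4B: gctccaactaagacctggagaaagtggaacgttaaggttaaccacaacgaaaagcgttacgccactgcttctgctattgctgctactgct
RPL1A: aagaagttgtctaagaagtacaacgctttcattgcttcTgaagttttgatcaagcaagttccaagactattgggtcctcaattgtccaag
RPL1B: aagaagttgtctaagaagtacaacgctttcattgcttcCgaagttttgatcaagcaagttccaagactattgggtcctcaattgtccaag
RPL15A: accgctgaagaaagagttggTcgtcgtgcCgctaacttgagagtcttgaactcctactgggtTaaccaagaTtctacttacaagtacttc
RPL15B: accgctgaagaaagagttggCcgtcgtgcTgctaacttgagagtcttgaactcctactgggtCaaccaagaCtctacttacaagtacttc

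The stretches are from the R64 reference, the assembly of the files' sacCer3 build, at chrXVI:700894-700983 (plus strand) for *TEF1*, chrII:477971-478060 (plus) for *TEF2*, chrII:300466-300555 (plus) for *RPL4A*, chrIV:472153-472242 (plus) for *RPL4B*, chrXVI:136090-136179 (plus) for *RPL1A*, chrVII:254941-255030 (plus) for *RPL1B*, chrXII:202201-202290 (minus) for *RPL15A* and chrXIII:509959-510048 (minus) for *RPL15B*. The *TEF1* and *TEF2* coding sequences are 99.9% identical, with a longest shared run of 761 bases. Their values were -2.39 and -2.47 for *TEF1* and -2.83 and -2.80 for *TEF2* at 6 and 8 h in *kar4*Δ/Δ, against -0.67 and -0.27 for *TEF1* and -0.78 and -0.36 for *TEF2* in wild type. Both copies were therefore more than 2-fold lower at both hours, as were the *RPL4* and *RPL1* copies. The *RPL4A* and *RPL4B* differences were -1.37 and -1.49 at 6 h and -1.62 and -1.57 at 8 h, with 98.9% identity. The *RPL1A* and *RPL1B* differences were -2.07 and -2.16 at 6 h and -2.09 and -2.04 at 8 h, with 99.4% identity and 1 mismatch in the stretch shown. *RPL15A* and *RPL15B* are 93.2% identical, share no run longer than 116 bases and have no repeated window. Their differences had the opposite sign, 1.05 and 0.55 at 6 h and 0.66 and 0.50 at 8 h. The size of the difference did not follow the share of repeated windows throughout. *RPS8A* and *RPS8B*, with 69.6% of windows repeated, had -0.89 and -0.78 at 6 h and -0.92 and -0.70 at 8 h, whereas *RPL4A* and *RPL4B* have 45.0%. The chaperone gene *SSA1*, with 35.6%, had -0.38 and -0.51.

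The low values of repeated genes followed whole conditions and were already there at 0 h. Over the 112 mostly repeated genes, the median value lay between -2.36 and -1.98 at the 6 hours of *kar4*Δ/Δ Pzev-*IME1*, against -0.37 to -0.09 in wild type Pzev-*IME1*. With both Pzev-*IME1* and Pzev-*RIM4* the medians were as low in *kar4*Δ/Δ (-2.78 to -1.98) as in wild type (-3.07 to -1.82). With endogenous promoters they were -0.47 to -0.34 in *kar4*Δ/Δ and -0.28 to 0.24 in wild type. So 18 of the 36 conditions were low for these genes, among them *kar4*Δ/Δ Pzev-*IME1* but not the wild type it is compared with. Whether the counting of reads that match several places played a part was not tested. The *KAR4* genotype alone did not mark the low conditions, since wild type with Pzev-*RIM4* was low and *kar4*Δ/Δ with endogenous promoters was not. Within Pzev-*IME1*, the genotype and whatever else set its *kar4*Δ/Δ libraries apart cannot be told apart, so every gene with repeated sequence is reported as uncertain.

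**Figure D2:**
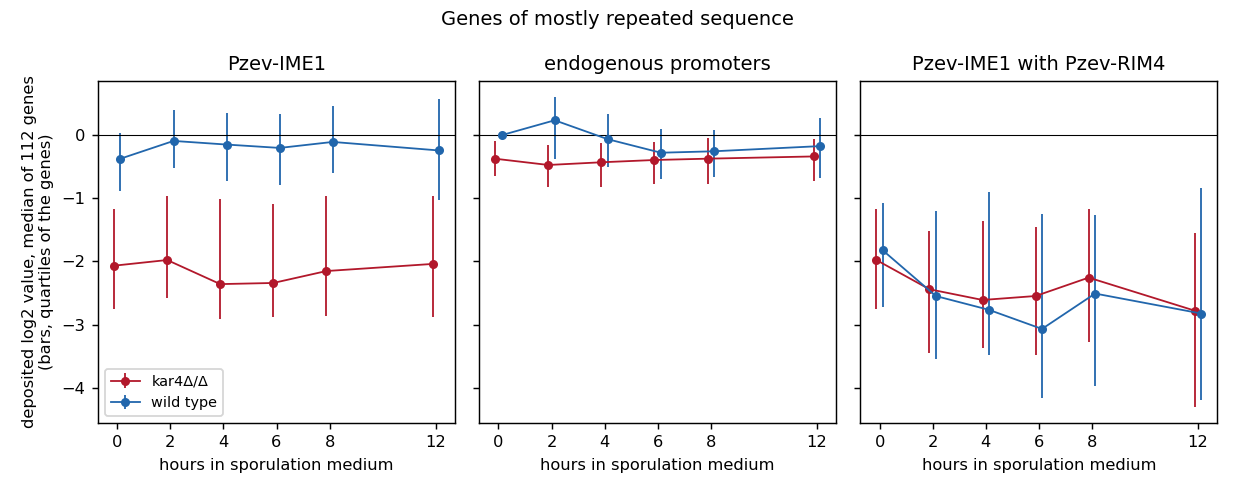
Deposited log2 value (y axis, relative to wild type with endogenous promoters at 0 h) of the 112 genes of mostly repeated sequence over the hours in sporulation medium (x axis), in the 3 promoter backgrounds. Points are medians over genes and bars run from the lower to the upper quartile of genes, so they are not replicate error. *kar4*Δ/Δ Pzev-*IME1* and both genotypes with Pzev-*RIM4* lie at -1.82 or below, and the others between -0.47 and 0.24.

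The repeated genes include 10 of the 12 lowest named genes. *DDI3* and *DDI2*, cyanamide hydratase genes, had differences of -2.88 and -2.57 at 6 h and -3.54 and -2.91 at 8 h. *SNZ2* and *SNO3*, of pyridoxine synthesis, had -3.05 and -2.59 at 6 h and -2.65 and -3.20 at 8 h. The other 6 were the helicase genes *YRF1-4* and *YRF1-2*, *COS5*, the hexose transporter genes *HXT7* and *HXT15*, and the maltase gene *MAL12*, with differences between -3.06 and -2.24. Only *KAR4* and *FIT1* among the 12 were of unique sequence. Of the lists of related genes, every lower member of the translation factor list had repeated sequence, 6 of 39 genes (*TEF1*, *TEF2*, *EFT1*, *EFT2*, *TIF1* and *TIF2*), and so did the 2 lower genes of 22 in the phosphate list, the acid phosphatase genes *PHO11* and *PHO12*. The rest of the account is given over genes of unique sequence unless said.

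Of all lists, that of iron uptake held the most lower genes of unique sequence at both hours. Yeast takes up iron by reducing it at the cell surface and importing it through a ferroxidase and permease pair, or as iron bound to siderophores, and the factors Aft1p and Aft2p turn these genes on when iron is short. Of 26 genes of this list, all of unique sequence, 8 were lower at 6 h and 15 at 8 h, and 0 were higher. Their median difference was -0.70 at 6 h and -1.11 at 8 h, beside -0.00 and 0.02 over all genes. Under quantile scaling, 5 and 14 were lower. Over all unique genes, without that scaling, 61 of 5613 were lower at 6 h and 87 at 8 h.

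The cell wall proteins that hold siderophores stood at the front. *FIT1* had values of -2.64 at each hour in *kar4*Δ/Δ, against 0.11 at 6 h and 0.81 at 8 h in wild type. Its differences, -2.76 and -3.45, exceeded those of every other unique gene except *KAR4*, and it was also lower at the other hours, from -2.22 at 2 h to -1.17 at 4 h. *FIT2* had values of -2.61 and -3.17 in *kar4*Δ/Δ, against -0.78 and 0.02 in wild type. Unlike *FIT1*, it was 1.13 higher at 4 h on the log2 scale. *FIT3* had differences of -1.10 at 6 h and -2.33 at 8 h.

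The siderophore transporter genes *ARN1* and *ARN2* followed. *ARN1* had values of -3.48 and -3.74 in *kar4*Δ/Δ, against -1.92 and -1.43 in wild type, and *ARN2* had differences of -1.08 and -2.21. Under quantile scaling *ARN2* was no longer 2-fold lower at 6 h, with -0.45. The other siderophore transporter genes *ENB1* and *SIT1* were 2-fold lower only at 8 h, with -1.40 and -1.11.

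The reductive pathway was lower as well. *FET3*, the multicopper ferroxidase, had values of -1.25 and -1.60 in *kar4*Δ/Δ, against 0.09 and 0.18 in wild type. Its partner permease gene *FTR1* had differences of -0.75 and -1.68, and *CCC2*, which loads copper into Fet3p, -0.65 and -1.09. The ferric reductase gene *FRE3* was lower at both hours (-1.14 and -1.59), and *FRE2* and *FRE5* at 8 h only (-1.16 and -1.24), where *FRE2* was -0.57 under quantile scaling. *TIS11*, whose protein speeds the decay of mRNAs for iron-using proteins, had values of -2.18 and -2.28 in *kar4*Δ/Δ, against -0.07 and 0.01 in wild type. The heme oxygenase gene *HMX1* was lower at 8 h, with -1.12. The regulator genes themselves were less far apart. *AFT1* had differences of -0.31 and -0.61 and *AFT2* of 0.17 and 0.03, and the low-affinity transporter gene *FET4* had -0.24 and 0.32.

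The iron differences were followed over the other hours and promoter backgrounds. Over the 26 genes the median difference with Pzev-*IME1* was -0.19 at 0 h, -0.29 at 2 h and -0.01 at 4 h, before -0.70 at 6 h, -1.11 at 8 h and -0.63 at 12 h. With endogenous promoters it was 0.32 at 6 h and 0.27 at 8 h, and with Pzev-*RIM4* added -0.16 and -0.22. The underlying median values show which condition differed. They were -0.80 at 6 h and -1.03 at 8 h in *kar4*Δ/Δ Pzev-*IME1*, against -0.22 and 0.07 in its wild type. They were -0.52 and -0.63 in *kar4*Δ/Δ with endogenous promoters, against -0.82 and -0.85 in wild type. With Pzev-*RIM4* they were -1.64 and -1.44 in *kar4*Δ/Δ, against -1.30 and -1.31 in wild type. The wild type Pzev-*IME1* cells thus had the highest iron gene values of the 6 conditions at each of these hours. The differences between backgrounds were not tested.

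**Figure D3:**
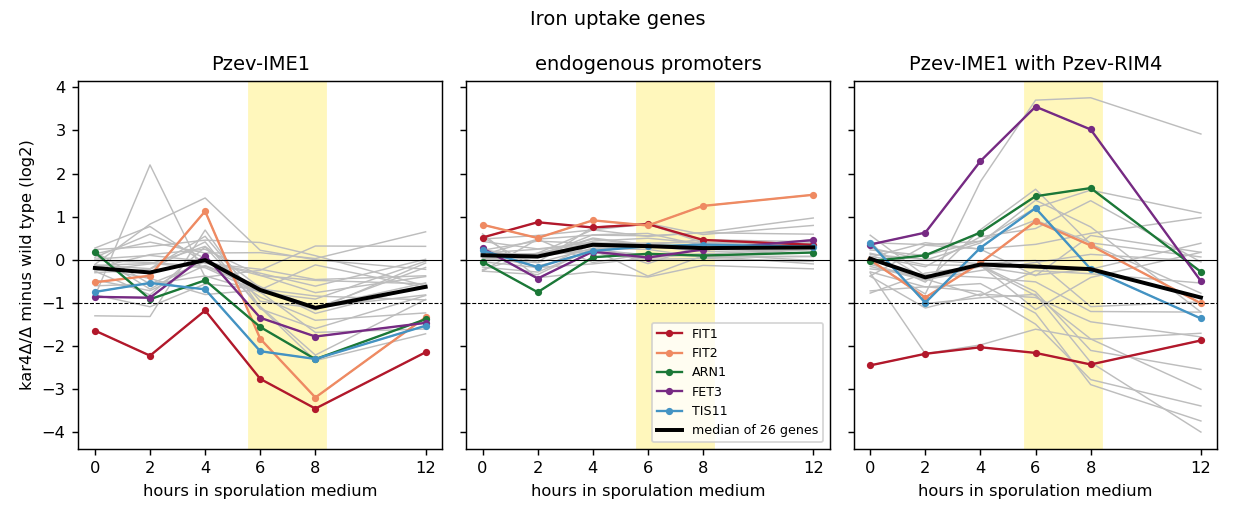
Difference of each of the 26 iron uptake genes (y axis, *kar4*Δ/Δ minus wild type, log2) by hour in sporulation medium (x axis) in the 3 promoter backgrounds, with 5 genes in colour, the others in grey and the median in black. The shaded band covers 6 h and 8 h and the dashed line marks a 2-fold lower value. With Pzev-*IME1* the median drops to -0.70 and -1.11 in the band, and with endogenous promoters it is 0.32 and 0.27 there.

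All iron genes lower at 8 h had the letters of a known Aft1p site in front of their coding regions. The list is of genes that Aft1p and Aft2p turn on. A share of sites above that of all genes is therefore not a result about the differences. The letters TGCACCC, the core of the site known for Aft1p, were looked for on both strands in the window from 101 to 500 bases before each start codon. They occurred in 2.02% of all genes with such a window (119 of 5883), in 15 of the 15 iron genes lower at 8 h, and in 6 of the other 11. By the both-hours split they occurred in 8 of the 8 lower iron genes and in 13 of the other 18. A match is only an occurrence of the letters. The sites in front of 4 of the lower genes are printed here, 5′ to 3′ along the coding strand, with the matched letters in capitals.
FIT1: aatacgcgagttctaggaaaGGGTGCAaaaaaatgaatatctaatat
FIT2: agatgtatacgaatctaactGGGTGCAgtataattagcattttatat
TIS11: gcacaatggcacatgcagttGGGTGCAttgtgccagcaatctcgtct
ARN1: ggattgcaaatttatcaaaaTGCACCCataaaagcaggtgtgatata

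In R64 these stretches lie at chrIV:1505056-1505102 (minus strand) for *FIT1*, chrXV:1059380-1059426 (plus) for *FIT2*, chrXII:416805-416851 (minus) for *TIS11* and chrVIII:21205-21251 (minus) for *ARN1*. The site is in the reverse orientation in the first 3 genes and as written in *ARN1*.

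Other unique genes were lower at both hours without belonging to the iron list. They were named after their values were seen. Among them *HSP30*, a membrane heat shock protein gene, had differences of -1.26 and -2.09, *CAR2*, of arginine use, -1.41 and -1.25, the glucose repressor gene *NRG1* -1.52 and -1.14, the calmodulin-dependent kinase gene *CMK2* -1.53 and -1.22, and the biotin precursor transporter gene *BIO5* -1.25 and -1.66. Over the 37 unique lower genes other than *KAR4*, iron genes included, the median value was -1.31 at 6 h and -1.46 at 8 h in *kar4*Δ/Δ Pzev-*IME1*, against 0.09 and 0.11 in its wild type. The selection of these genes fixes that gap, which is given as a description. At the hours that did not enter the selection, their median difference was -0.52 at 0 h, -1.22 at 2 h, -1.17 at 4 h and -1.16 at 12 h. With endogenous promoters it was 0.31 and 0.09 at 6 and 8 h.

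The median of the cell cycle genes was above 0 at 6 h and below 0 at 8 h. The list holds 30 genes, the cyclins and the genes that Swi5p and Ace2p turn on in newborn daughter cells as they separate from their mothers. At 6 h 15 of them were higher in *kar4*Δ/Δ and 0 lower, with a median difference of 0.76. At 8 h 1 was higher and 3 were lower, with a median of -0.40, or -0.08 under quantile scaling. Over all genes, 1.49% were higher at 6 h and 3.86% lower at 8 h. Over unique genes, 76 of 5613 were higher at 6 h and 87 lower at 8 h. None of the 15 genes higher at 6 h was among the 3 lower at 8 h. The median values were 0.53 at 6 h and -0.93 at 8 h in *kar4*Δ/Δ, against -0.38 and -0.29 in wild type, so wild type stayed level while *kar4*Δ/Δ did not. Earlier the median difference was -1.11 at 0 h, -0.86 at 2 h and -0.11 at 4 h.

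The daughter separation genes carried the 6 h side. *EGT2*, a cell wall endoglucanase gene, had values of 0.92 at 6 h and -2.67 at 8 h in *kar4*Δ/Δ, against -1.66 and -1.95 in wild type, differences of 2.58 and -0.72. At 4 h its difference was -3.19. *DSE2* had 1.19 and -1.20 in *kar4*Δ/Δ, against -1.08 and -1.50 in wild type, and the endochitinase gene *CTS1* had 0.13 and -2.10, against -1.89 and -2.13. In each of these, only the 6 h value of *kar4*Δ/Δ was above 0 among the 6 h and 8 h values given. At 0 h, *EGT2* had 1.02 in wild type. *PIR1*, *DSE1*, *DSE4* and *SCW11*, also of this list, had 6 h differences of 2.04, 1.98, 1.78 and 1.77. Their 8 h differences lay between -0.60 and -0.17, except that *DSE1* was 0.40 at 8 h under quantile scaling. With endogenous promoters the 6 and 8 h differences were 1.36 and 2.68 for *EGT2*, 0.60 and 0.86 for *DSE2*, and 0.58 and 0.73 for *CTS1*. With Pzev-*RIM4* added they were -0.98 and -2.82, -0.31 and 0.22, and -0.10 and 0.64 for the same genes.

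The mitotic cyclin genes were uneven. *CLB1* had differences of 1.62 at 6 h and -0.83 at 8 h, and *CLB2* of 1.26 and -0.89, while *CLB3* had 0.10 and 0.11 and *CLB4* -0.17 and -0.51. *SWI5*, the gene of a factor that turns on daughter separation genes, had values of 1.55 and 0.78 in *kar4*Δ/Δ, against -0.50 and -0.27 in wild type. It was the only gene of the list 2-fold higher at both hours, and under quantile scaling 0 genes of the list were higher at 8 h. *SIC1*, the inhibitor of the S-phase cyclins, was 1.06 higher at 6 h. The 3 genes lower at 8 h were *PCL1* and *CLN1*, for G1 cyclins, and *CIS3*, for a cell wall protein (0.42 at 6 h and -2.04 at 8 h). *PCL1* had differences of 1.74 at 4 h, -0.83 at 6 h and -2.09 at 8 h, and *CLN1* of 1.09, -0.52 and -1.24. Of the other genes for cyclins of this kind, *CLN2* had 0.00 and -0.35, *CLN3* -0.44 and -0.95, *PCL2* 0.27 and -0.58, and *PCL9* 1.53 and -0.50 at 6 and 8 h. The S-phase cyclin genes *CLB5* and *CLB6*, which premeiotic replication uses, were not 2-fold apart, with -0.32 and 0.23 at 6 h and 0.23 and 0.49 at 8 h.

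**Figure D4:**
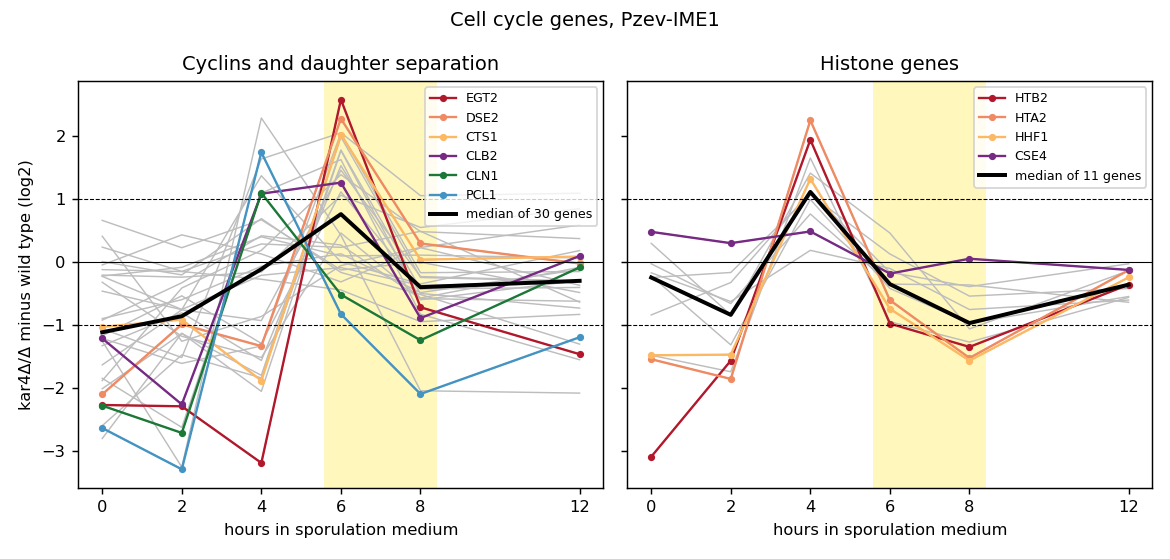
Difference of each gene (y axis, *kar4*Δ/Δ minus wild type, log2) by hour (x axis) with Pzev-*IME1*, for 30 cyclin and daughter separation genes (left) and 11 histone genes (right). Coloured lines are named genes, grey lines the others and black lines the medians, and the band covers 6 h and 8 h. *EGT2* peaks at 6 h (2.58) and the histone median at 4 h (1.11).

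The site known for Swi5p and Ace2p, ACCAGC, was found on either strand in the same window in 11.2% of all genes (661 of 5883), in 7 of the 15 genes higher at 6 h and in 2 of the other 15. Part of the list was made of genes that these factors turn on, so the counts are no support for the differences. The sites of 4 of the higher genes are given along the coding strand, with the match in capitals.
EGT2: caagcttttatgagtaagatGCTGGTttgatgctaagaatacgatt
DSE2: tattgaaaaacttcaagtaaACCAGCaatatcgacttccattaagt
PIR1: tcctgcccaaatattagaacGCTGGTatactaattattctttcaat
DSE1: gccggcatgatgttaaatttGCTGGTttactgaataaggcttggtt

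They lie at chrXIV:23831-23876 (plus strand) for *EGT2*, chrVIII:385228-385273 (plus) for *DSE2*, chrXI:143003-143048 (minus) for *PIR1* and chrV:409291-409336 (minus) for *DSE1*.

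Histone genes, most of which are transcribed as DNA is replicated, had a lower median in *kar4*Δ/Δ at 8 h. Of 11 genes, 0 were 2-fold apart at 6 h (median -0.35) and 5 were lower at 8 h (median -0.97). Over unique genes, 87 of 5613 were lower at 8 h. *HHF1*, for histone H4, had values of -0.20 and -0.35 in *kar4*Δ/Δ, against 0.55 and 1.21 in wild type, and *HTA2*, for H2A, -0.72 and -0.57, against -0.11 and 0.95. The 8 h differences came with wild type values that were higher at 8 h than at 6 h. *HTB2*, *HHF2* and *HHT1* had 8 h differences of -1.35, -1.27 and -1.06. *HHT2*, *HTZ1*, *HTA1*, *HTB1* and *HHO1* were not 2-fold apart, with 8 h differences of -0.97 to -0.36. The centromeric histone gene *CSE4* had -0.18 and 0.05. At 4 h the median difference of the list was 1.11. With Pzev-*RIM4* added, the 8 h differences were 1.06 for *HHF1* and 1.88 for *HTA2*, but -1.02 for *HTZ1* and -1.88 for *HHO1*. With endogenous promoters they were 0.18, 0.03, 0.165 and 0.39 for the same genes.

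The early meiotic genes differed by less than 2-fold at 6 h and 8 h. At 6 h the medians of their 7 lists nevertheless all lay below 0, from -0.43 to -0.16, beside -0.00 over all genes. At 8 h the list medians ran from -0.22 to 0.18, beside 0.02. Of the 5613 unique genes, 61 were lower and 76 higher at 6 h, and 87 and 57 at 8 h. Of 86 genes in 7 lists, which cover the meiotic regulators, the Ime1p-dependent genes of the study's own arrays, and double-strand break, strand exchange, axis, synaptonemal complex and crossover genes, 0 were 2-fold apart at 6 h and 0 at 8 h. Their median difference was -0.28 at 6 h and -0.12 at 8 h, between 13 lower genes at 4 h (median -0.54) and 32 at 12 h (median -0.74). The medians of the values were 1.49 and 2.05 in *kar4*Δ/Δ, against 1.90 and 2.11 in wild type. The lowest gene at each hour was *RIM4*, which encodes an RNA-binding regulator of meiotic translation. Its values were 1.99 and 2.31 in *kar4*Δ/Δ, against 2.99 and 3.14 in wild type. The differences, -1.0 at 6 h, just short of 2-fold, and -0.83 at 8 h, lay between -1.51 at 4 h and -1.98 at 12 h.

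*RME1*, the repressor of *IME1* whose mRNA is a known substrate of methylation, was the highest of the 86 at 6 h. It had values of 0.89 and 0.49 in *kar4*Δ/Δ, against -0.06 and -0.25 in wild type, differences of 0.95 and 0.74. *IME2*, the kinase gene downstream of Ime1p, had 4.45 and 4.68 in *kar4*Δ/Δ, against 4.38 and 4.85 in wild type. The strand exchange genes *MEI5* and *SAE3* were among the most strongly induced. *MEI5* had 6.69 and 7.37 in *kar4*Δ/Δ, against 6.90 and 7.18 in wild type, and *SAE3* had 6.04 and 6.39, against 5.79 and 5.45. The synaptonemal complex genes *ECM11* and *GMC2* had differences of -0.23 and -0.44 at 6 h and 0.35 and -0.20 at 8 h.

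*NDT80* was less than 2-fold above its 0 h level in both genotypes. Its values were 0.10 and 0.26 in *kar4*Δ/Δ, against 0.49 at each hour in wild type, and its difference reached -1.89 at 12 h. Of 47 genes of its regulon and of the middle phase, 2 were lower and 3 higher at 6 h, and 4 lower and 0 higher at 8 h, with medians of -0.04 and -0.06 against -1.59 at 12 h. Over all genes, repeated ones included, 3.34% were lower and 1.49% higher at 6 h, and 3.86% lower at 8 h. Over unique genes, 61 of 5613 were lower and 76 higher at 6 h, and 87 lower at 8 h. Under quantile scaling 2 of the 47 were lower at 8 h. *OSW2* and *SPR28* were lower at 6 h (-1.56 and -1.0), and *SPR3* and *SPO77* at 8 h (-1.14 and -1.06), all genes of spore formation. The 3 higher at 6 h were *CLB1*, *SPS4* and the glucoamylase gene *SGA1* (1.12). *GAS4* and *SPS2*, needed for the spore wall, had -0.08 and -0.65 at 6 h and -0.12 and -0.24 at 8 h, set against -3.19 and -4.69 at 12 h. *SPS4*, also of the middle phase, was the only gene of the 6496 that was 2-fold higher at 6 h (1.27) and 2-fold lower at 8 h (-1.31). It was named after its values were seen. The polo kinase gene *CDC5* had 0.58 and -0.40, and the 14-3-3 gene *BMH1* 0.58 and 0.30.

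Of the 25 genes higher at both hours, 17 were of unique sequence, 0 were scored as repeated, and 8 had no score. Over all 6496 genes, 5613 were of unique sequence and 670 had no score. The named genes higher at both hours were led by *RSO55* (1.5 and 1.83) and *HSP12*. *HSP12*, a small heat shock gene of the general stress response, had values of -0.98 and -1.08 in *kar4*Δ/Δ, against -2.39 and -2.87 in wild type. Both cytochrome c genes were higher. *CYC7* had 5.28 and 4.91 in *kar4*Δ/Δ, against 3.74 and 3.31 in wild type, and *CYC1* had 3.23 and 2.52, against 1.89 and 1.28. *AHP1*, a thiol peroxidase gene, had 0.31 and 0.29, against -1.21 and -1.30. *NEJ1*, a regulator of DNA end joining that is repressed in diploids, had differences of 1.31 and 1.80, and *STE12*, the partner of Kar4p in mating, 0.90 and 1.23. The remaining named genes had differences of 1.06 to 1.57. They were *RPS21B*, of the small ribosomal subunit, *EDC1*, of mRNA decapping, *MOB2*, whose product partners the Cbk1p kinase, the sulfite pump gene *SSU1*, and *MET17*, of sulfide assimilation. *MET17*, also called *MET15*, had 5.57 and 5.26 in *kar4*Δ/Δ, against 4.04 and 3.88 in wild type. Between the Pzev-*IME1* diploids described at the start, the strain list gives this gene as heterozygous only in *kar4*Δ/Δ. Other wild type strains of that list carry met15/+ as well. The 6 and 8 h differences of *MET17* were -1.68 and -0.81 with endogenous promoters, and 3.44 and 4.20 with Pzev-*RIM4* added. With Pzev-*IME1* its difference was -3.93 at 2 h. The part of the strain difference in its value was not tested.

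The wider lists behind these genes had medians above 0 by less than 2-fold. Their counts stand beside 1.49% of all genes higher at 6 h and 1.11% at 8 h. Of 53 respiratory chain and TCA cycle genes, 2 were higher at each hour, *CYC7* and *CYC1*, and the median difference was 0.45 at 6 h and 0.25 at 8 h. Of 31 stress genes of Msn2p and Msn4p, 2 were higher at 6 h and 6 at 8 h, with medians of 0.33 and 0.32. *SIP18*, a hydrophilin gene of the desiccation response, had values of -2.23 and -2.17 in *kar4*Δ/Δ, against -3.20 and -4.39 in wild type. *GRE1* and *MSC1* had 8 h differences of 1.67 and 1.28, and *GRE1* had 0.99 under quantile scaling. The same list had a median of -0.45 at 4 h and 0.90 at 12 h. Of 37 oxidative defence and reductase genes, 1 was higher at 6 h and 4 at 8 h, with medians of 0.26 and 0.34. Among them *GRE2*, a reductase gene, had 0.98 and 1.45, and the cytochrome c peroxidase gene *CCP1* 0.68 and 1.10.

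Ribosomal protein genes were taken by sequence class. Of 116 of unique sequence, 0 were lower, 8 were higher at 6 h and 5 at 8 h, and the median difference was 0.49 at 6 h and 0.54 at 8 h. Among all 5613 unique genes, 76 were higher at 6 h and 57 at 8 h. Over all 138 ribosomal protein genes, 9 were higher at 6 h and 5 at 8 h, or 16 and 13 under quantile scaling. Over all 6496 genes, 1.49% were higher at 6 h and 1.11% at 8 h without that scaling. Of 18 ribosomal protein genes that were partly repeated, 9 were lower at 6 h and 7 at 8 h, with medians of -1.02 and -0.87. Among all 101 partly repeated genes, 37 were lower at 6 h and 32 at 8 h. The medians of the unique and partly repeated ribosomal protein genes differ in sign, but the latter ranged up to 0.80 at 6 h and 0.64 at 8 h. Over all 138 ribosomal protein genes the median value was -0.20 and -0.18 in *kar4*Δ/Δ, against -0.64 and -0.70 in wild type. The median difference had been 1.09 at 4 h. It was -0.50 and -0.41 at 6 and 8 h with endogenous promoters, and 2.02 and 1.39 with Pzev-*RIM4* added.

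Several lists had no member past the limit. Among all 5613 unique genes, 61 were lower and 76 higher at 6 h, and 87 and 57 at 8 h. A count of 0 in a short list therefore says little. None of the 50 DNA replication genes, 91 ribosome biogenesis genes, 34 proteasome genes, 71 mitochondrial ribosomal protein genes, 32 core autophagy genes or 27 meiotic division genes was 2-fold apart at 6 h or 8 h. Among nitrogen genes, *CAR2* and *PUT1*, of arginine and proline use, were lower at 6 h (-1.41 and -1.37) in a list of 14 whose median was 0.07. Among 28 sulfate and methionine genes, *MET17* and *MET3* were higher at 6 h (1.52 and 1.11), *MET17* and *MET14* at 8 h (1.39 and 1.20), and the sulfonate dioxygenase gene *JLP1* lower at 6 h (-1.20).

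**Figure D5:**
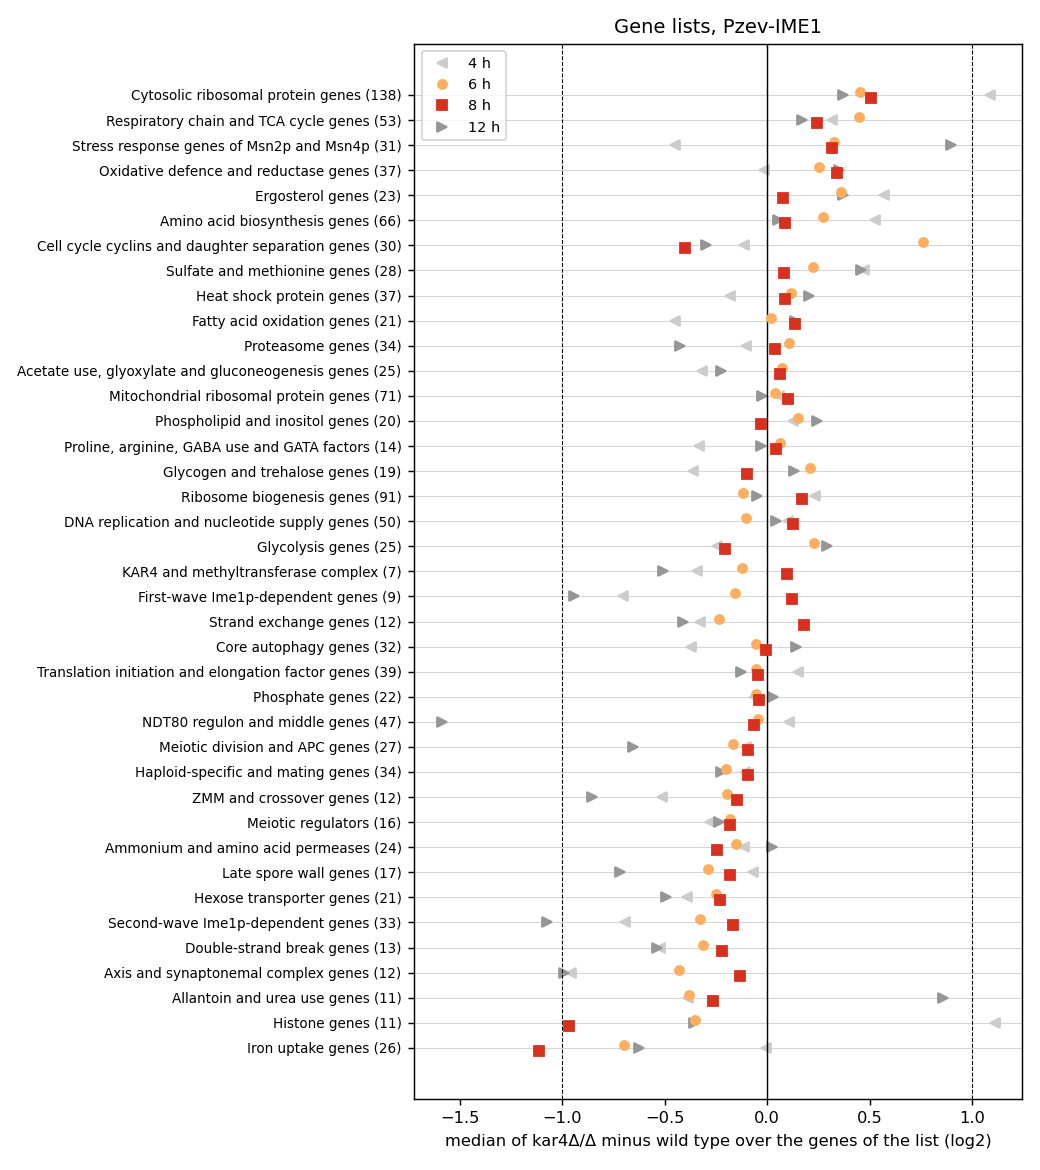
Median difference of each gene list (x axis, *kar4*Δ/Δ minus wild type with Pzev-*IME1*, log2) at 4, 6, 8 and 12 h, with the number of genes in brackets and the lists in order of their median at 6 and 8 h. The strain marker genes are not drawn, and dashed lines mark 2-fold. Iron uptake is lowest at 8 h (-1.11), the cell cycle list is 0.76 at 6 h and -0.40 at 8 h, and the 7 early meiotic lists lie between -0.43 and 0.18 at both hours.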

How the data were processed

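RNA was sequenced from *kar4*Δ/Δ and wild type diploids of 3 promoter backgrounds at 6 hours, with 2 biological replicates of each of 36 conditions. Per the paper's methods, the authors mapped reads with BWA-MEM (sacCer3, per the processing notes), counted them with htseq-count and computed fold changes with DESeq2. Tool versions, the strand setting and the treatment of reads with several matches are not given in the sources used here, so reads of a gene cannot be told apart from those of an overlapping or antisense gene. The deposited log2 values are those fold changes, relative to the wild type 0 h libraries with endogenous promoters, with replicates combined. The table holds 6660 genes in 36 such columns, and 16 further columns without a name were not used.

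The 164 genes without a value in every column were left out, which left 6496. Differences were taken between columns of the same hour, and genes at least 2-fold apart were counted. The R64 annotation lists 5986 of the 6660 identifiers as a locus tag and gave symbols, coordinates and sequences. The repeat score of a gene is the share of its 150-base windows found elsewhere in R64 on either strand. It was available for 5826 genes (89.7%) and for 157 of the 181 genes lower at both hours (86.7%).

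Named are *KAR4*, *IME1*, *RIM4*, *IME2*, *RME1*, *NDT80*, the genes the paper names for its RNA-seq, the 12 lowest and 12 highest genes with a standard name that were 2-fold apart at both hours, up to 4 members with the largest differences of each list, and any member of a list that is the subject of a paragraph. *STE12*, the sequence pairs and genes marked in the text were named outside that rule, after their values were seen. The comparison, the 40 lists and the rules were chosen with earlier results of these data known, and 2 lists are the study's own array lists of Ime1p-dependent genes. Alternatives were quantile scaling, centring of each column, genes with a value in the 4 columns compared, standard-named genes, sizes of 1.5-fold and 4-fold, and, added after the data were seen, unique genes only and windows of 100 and 50 bases. The scripts were checked on simulated data. The tools were numpy 2.4.6 and pandas 2.3.3 under Python 3.11.15, and figures were drawn with matplotlib 3.10.9.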

Additional observations from a re-analysis of the deposited data

Results flagged for a closer look

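The results below moved in opposite directions in the conditions set side by side, and the differences between them were not tested because the table holds 1 value per condition. *SPS4* had a difference of 1.27 at 6 h and -1.31 at 8 h, so the 6 h difference was 2.58 above that at 8 h. The median of the 30 cyclin and daughter separation genes was 0.76 at 6 h and -0.40 at 8 h, which are 1.16 apart. The median of the 26 iron uptake genes was -0.70 at 6 h and -1.11 at 8 h with Pzev-*IME1*, against 0.32 and 0.27 with endogenous promoters, so the Pzev-*IME1* differences minus the endogenous ones were -1.02 at 6 h and -1.38 at 8 h. The median of the 112 genes of mostly repeated sequence was -1.97 and -2.12 with Pzev-*IME1*, against 0.37 and 0.55 with Pzev-*RIM4* added, which left -2.34 at 6 h and -2.67 at 8 h between the backgrounds.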

How the results depend on the processing

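No paired analysis was possible because the table holds 1 value per condition with both replicates combined, and for the same reason no replicate could be left out in turn. Under quantile scaling 148 genes were higher at 6 h and 46 at both hours, and the cause was not tested. Over the genes with a standard name, which are fewer, 116 were lower at 6 h, 136 at 8 h and 88 at both hours, and 15 were higher at both. At 1.5-fold, 499 genes were lower and 459 higher at 6 h, 539 and 412 at 8 h, and 347 and 190 at both hours. At 4-fold, the counts were 81 and 8, 95 and 4, and 71 and 2. Over unique genes only, chosen after the data were seen, 61 genes were lower at 6 h, 87 at 8 h and 38 at both hours. Centring each column, and requiring a value only in the columns compared, kept all 6 counts within 1.5 times. Windows of 100 and 50 bases gave 124 and 125 repeated genes among the 181 lower at both hours, against 119. All 80 list medians stayed within 1.5-fold under each scaling, and 2 of them changed sign under quantile scaling, those of glycolysis genes (-0.21 and 0.06 after scaling) and core autophagy genes (-0.01 and 0.09) at 8 h. Of 456 gene values, 13 moved by more than 1.5-fold under quantile scaling, among them *KAR4* (-4.56 and -4.87). The 8 h difference of *DSE1* changed sign under that scaling.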
